A study of Mus musculus with 20 samples.

Results

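The genes described here encode the extracellular and membrane parts of Wnt signalling. They comprise every gene named Wnt, Fzd, Sfrp, Dkk or Rspo on the array, together with Lrp5, Lrp6, Ror1, Ror2, Apcdd1, Axin1, Axin2 and Ctnnb1. Members were set by a rule on gene symbols, which was chosen with earlier results of these data known. The members, each with the 1 probe set of highest mean, numbered 49 of 20794 genes measured. They fall into 19 Wnt ligands, 10 Frizzled receptors, 4 co-receptors, 4 R-spondins, 9 secreted or surface inhibitors and 3 intracellular components.

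Wnt ligands are lipid-modified secreted proteins that bind Frizzled receptors. With Lrp5 or Lrp6 they stabilise β-catenin, the product of Ctnnb1, which drives transcription through TCF and LEF factors. With Ror co-receptors they act on cell polarity and movement instead. Dickkopf and secreted Frizzled-related proteins restrain the pathway, R-spondins enhance it, and Axin2 is both a brake on β-catenin and one of its target genes. In the early embryo Wnt signals pattern the neural tube and extend the body axis, and convergent movements that depend on planar polarity genes help the neural folds to close.

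CD-1 mouse conceptuses were kept for 24 h in whole embryo culture, between gestational days 8 and 9. Controls received 0.01% dimethyl sulfoxide, and exposed conceptuses received 100 µg/ml mono-2-ethylhexyl phthalate (MEHP), the monoester formed from the plasticiser di-2-ethylhexyl phthalate. Whether MEHP was given in the same solvent is not stated in the labels. Conceptuses were sorted by whether the embryo had a neural tube defect (NTD), and embryo and yolk sac were profiled separately on an Affymetrix mouse expression array. For each tissue there were 10 arrays. Of the controls 3 had no NTD and 1 did, and of the MEHP arrays 3 came from conceptuses lacking the defect and 3 from those showing it. Whether an array held 1 conceptus or a pool is not stated, so p-values measure the spread between these arrays, and the array numbers used below are names only. Levels are log2 values after robust multi-array averaging (RMA), and differences are on the log2 scale with standard errors (SE) from limma. A gene is said to rise or fall where the p-value adjusted over all 20794 genes was below 0.05. In bulk tissue, fewer cells of a type and less RNA per cell cannot be told apart.

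All 14 visceral endoderm markers were lower in control embryos than in control yolk sacs, and all 6 neural progenitor and all 7 heart markers were higher, so the tissue labels and the markers match. The array's 9 probe sets for nonspecific binding had mean levels of 3.92 to 4.05 on control embryos and 3.65 to 3.80 on MEHP embryos. On yolk sacs they were 3.87 to 4.08 and 3.70 to 3.83. Their level was thus 0.23 lower in MEHP embryos without NTD and 0.21 lower in the corresponding yolk sacs, which bears on every dim gene below. Above the brightest of these probe sets were 37 of 49 Wnt genes on all 10 embryo arrays and 30 of 49 on all 10 yolk sac arrays. The shares were 75.5% and 61.2%, against 57.4% and 57.8% of all genes. Below it on every embryo array were Wnt2b, Wnt3, Wnt8a, Wnt10a, Rspo4, Dkk4 and Lrp5. Below it on every yolk sac array were Wnt2b, Wnt3, Wnt7a, Wnt8a, Wnt8b, Wnt10a, Fzd9, Rspo4 and Dkk4. For a gene below this level in both groups no fold is given.

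Promoter windows are shown for the 3 genes that were higher in MEHP embryos with NTD than in control embryos: Wnt5b, which signals mainly without β-catenin, Fzd4, a receptor shared by Wnt ligands and Norrin, and Wnt2, a ligand of the early heart and vessels. Each runs from 250 bases before to 50 after a RefSeq gene start (build GRCm38.p6), 5′ to 3′ on the gene's strand. Capitals mark the TCF/LEF core CTTTGAT, the CCAAT box and the GC box GGGCGG on either strand, and some GC boxes overlap by 1 base. Wnt5b has 3 annotated starts, and the one shown is the start whose window holds CTTTGAT.
Wnt5b, chr6:119449337-119449636, minus strand: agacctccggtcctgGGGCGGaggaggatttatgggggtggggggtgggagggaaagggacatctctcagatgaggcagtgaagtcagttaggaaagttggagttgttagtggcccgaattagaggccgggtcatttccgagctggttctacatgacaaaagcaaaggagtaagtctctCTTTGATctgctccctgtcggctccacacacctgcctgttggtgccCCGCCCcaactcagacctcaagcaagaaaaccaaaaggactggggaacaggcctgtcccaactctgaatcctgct
Fzd4, chr7:89404116-89404415, plus strand: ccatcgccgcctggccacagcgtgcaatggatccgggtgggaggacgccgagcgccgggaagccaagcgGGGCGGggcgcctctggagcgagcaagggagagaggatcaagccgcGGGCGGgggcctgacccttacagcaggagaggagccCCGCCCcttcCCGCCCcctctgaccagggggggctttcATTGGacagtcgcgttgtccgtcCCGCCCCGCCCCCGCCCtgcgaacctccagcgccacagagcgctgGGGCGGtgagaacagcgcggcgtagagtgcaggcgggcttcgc
Wnt2, chr6:18030396-18030695, minus strand: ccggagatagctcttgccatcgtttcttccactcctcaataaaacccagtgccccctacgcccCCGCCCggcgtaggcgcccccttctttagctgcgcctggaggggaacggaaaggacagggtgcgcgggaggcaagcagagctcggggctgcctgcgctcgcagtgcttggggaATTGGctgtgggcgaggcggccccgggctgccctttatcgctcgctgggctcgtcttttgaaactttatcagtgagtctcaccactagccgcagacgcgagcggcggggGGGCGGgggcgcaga
The Wnt5b window held 1 TCF/LEF core, beginning at base -71 from the start, and 2 GC boxes. The Fzd4 window held 8 GC boxes and 1 CCAAT box, and that of Wnt2 held 2 GC boxes and 1 CCAAT box, with no CTTTGAT in either. Of the 49 genes, 31 had a window. CTTTGAT occurred in 2 of 35 member windows, those of Wnt5b and Wnt11, and in 3.7% of all 32851 windows. GC boxes occurred in 27 of 35 member windows and in 35.7% of all windows, and CCAAT in 14 of 35 and in 37.4%. These matches describe letters and not bound sites.

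The largest differences in the data set for these genes lay between the tissues. Control embryos had more of 33 of the 49 genes than control yolk sacs and less of 4, whereas 51.3% of all genes differed, 28.4% higher and 22.8% lower in embryos. At an unadjusted p below 0.05 there were 39 of the 49 genes and 55.5% of all genes. The median difference was 0.65 over the 49 genes and 0.03 over all genes. Of the 37 differing genes, 8 were not above the nonspecific probe sets in any control array of the dimmer tissue. For these 8 a fold is at best a lower bound, and Fzd9 among them has none. Its control embryos averaged 4.69, and the brightest nonspecific probe set read 4.62, 4.89 and 4.86 on the control yolk sacs. A further 2 of the 37, Wnt3 and Wnt10a, were below the nonspecific probe sets in both tissues.

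Among ligands, 15 of 19 were higher in control embryos and none was lower. Wnt5a, the main activator of Ror receptors, averaged 9.03 in control embryos against 7.15 in yolk sacs, a 3.68-fold difference (log2 1.88, SE 0.12, adjusted p = 5.03e-10). Wnt8b, a ligand of the dorsal forebrain, had a mean level of 6.29 in embryos and lay below the nonspecific probe sets in every yolk sac, so it was at least 2.82-fold higher. Wnt5b was likewise at least 2.12-fold higher in embryos. Wnt3a, a ligand of the dorsal neural tube and tail bud, was 1.49-fold higher in embryos (log2 0.58, SE 0.08, adjusted p = 5.38e-06). Wnt1, of the dorsal neural tube, averaged 5.53 in control embryos against 4.61 in control yolk sacs (adjusted p = 0.000136), and in the latter it was above the nonspecific probe sets on 1 of 3 control arrays.

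The Frizzled receptors divided between the tissues, with 7 of 10 higher in embryos and 3 higher in yolk sacs. Fzd9, among the 7, was near the nonspecific level in control embryos (mean 4.69) and below it in yolk sacs. Fzd3, which acts with Fzd6 in neural tube closure in mice, was 13.3-fold higher in embryos (means 10.04 and 6.31, log2 3.73, SE 0.12, adjusted p = 5.5e-14). Fzd7 was 3.59-fold higher in embryos (log2 1.84, SE 0.09, adjusted p = 6.27e-12). Fzd4 ran the other way and was 3.62-fold higher in yolk sacs, with means of 6.62 there and 4.76 in embryos (log2 -1.86, SE 0.17, adjusted p = 4.25e-08). Fzd5, a receptor required in the mouse yolk sac vasculature, was 1.78-fold higher in yolk sacs, and Fzd6 was 1.39-fold higher there. The co-receptors also divided. Ror1 and Ror2 were 5.59-fold and 3.72-fold higher in embryos, Lrp5 was at least 1.12-fold higher in yolk sacs, and Lrp6 did not pass the test (log2 difference -0.13, 95% interval -0.37 to 0.12).

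Among inhibitors and enhancers the embryo side dominated. Sfrp2, a secreted Wnt-binding protein, read 9.48, 9.44 and 9.45 on the control embryos and 4.34, 4.53 and 4.47 on the control yolk sacs. The yolk sac values lie within the nonspecific range, so Sfrp2 was at least 25.4-fold higher in embryos (adjusted p = 1.99e-14). Its relative Sfrp1 was 11.0-fold higher (log2 3.46, SE 0.27, adjusted p = 5.31e-09), and Apcdd1, a membrane inhibitor that binds Wnt and Lrp5, was 4.40-fold higher. Rspo2 was at least 5.78-fold and Rspo3 3.49-fold higher in embryos. Dkk1, which blocks Lrp5 and Lrp6, was 1.89-fold higher in embryos, while Dkk2, Dkk3, Dkk4, Sfrp4 and Sfrp5 did not pass. Axin2, the common readout of β-catenin activity, was 3.52-fold higher in embryos (log2 1.82, SE 0.13, adjusted p = 2.84e-09). Ctnnb1 itself had means of 12.52 and 12.46 and did not pass (log2 difference 0.06, 95% interval -0.06 to 0.18).

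**Figure D1:**
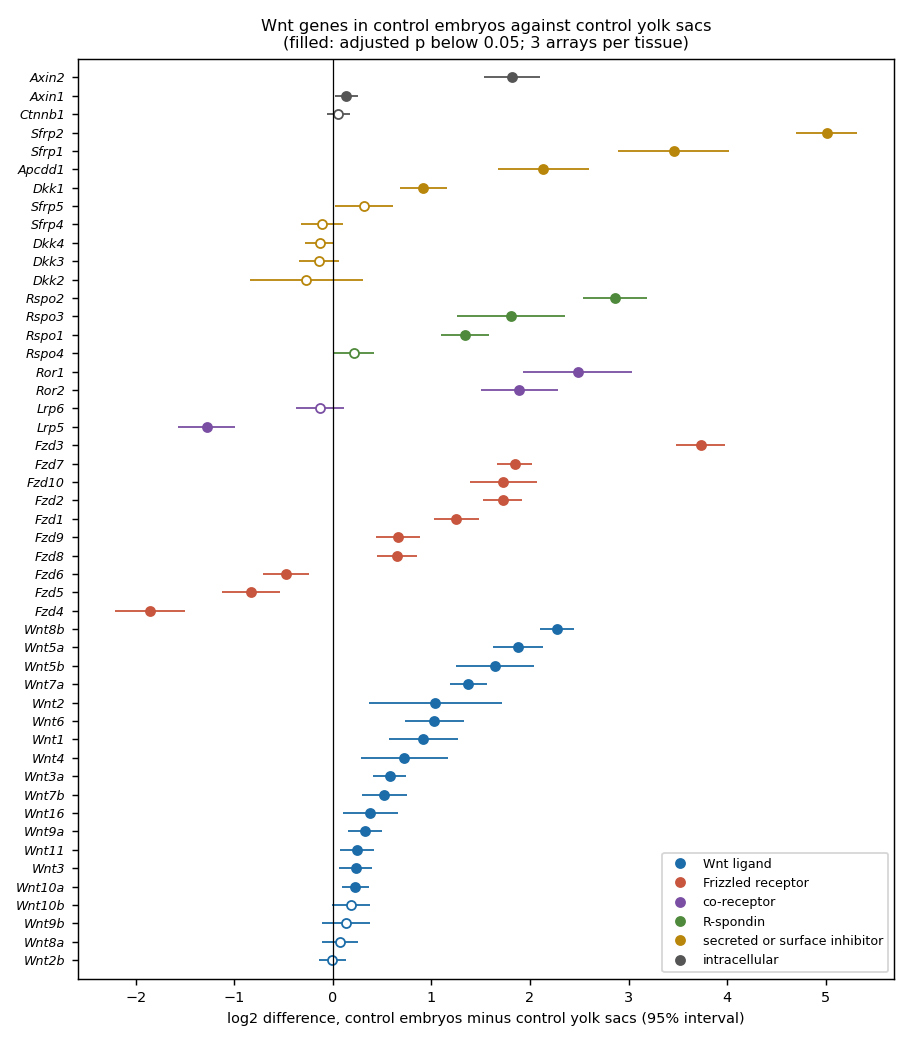
Log2 difference between control embryos and control yolk sacs for all 49 Wnt genes, with 95% intervals from limma, grouped by role; filled points passed the adjusted threshold. Sfrp2, Fzd3 and Sfrp1 lie farthest to the embryo side, and Fzd4, Lrp5, Fzd5 and Fzd6 are the 4 filled points on the yolk sac side.

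MEHP was then compared with control in embryos without NTD. Of the 49 genes, 4 rose and 4 fell, whereas 9.72% of all genes changed, 3.82% up and 5.9% down. Wnt5b, Fzd4, Ror1 and Dkk2 rose, each by less than 2-fold, and Wnt3a, Wnt2b, Wnt8a and Wnt10a fell. At an unadjusted p below 0.05 there were 12 of the 49 and 28.8% of all genes. The median difference was -0.02 over the 49 genes and -0.04 over all genes. Arrays of the groups did not overlap for 5 members above controls (12% of all genes) and 11 below (23.2%). By role, 1 ligand rose and 4 fell, and 1 of 10 Frizzled receptors, 1 of 4 co-receptors and 1 of 9 inhibitors rose. None of the R-spondins or intracellular components passed.

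Wnt5b read 5.77, 5.71 and 6.13 in control embryos and 6.56, 6.45 and 6.40 in MEHP embryos without NTD. Every exposed array was above every control. The difference was 1.52-fold (log2 0.60, SE 0.10, n = 3 per group, limma adjusted p = 0.0121). A second probe set for Wnt5b moved by -0.04 (SE 0.08, adjusted p = 0.772 over all probe sets), so the rise rests on 1 of 2 probe sets. The set that passed carries the array's suffix for probes that may match other transcripts.

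Fzd4 read 4.60, 4.93 and 4.76 in control embryos and 5.41, 5.45 and 5.38 in MEHP embryos without NTD, again without overlap. The difference was 1.57-fold (log2 0.65, SE 0.15, adjusted p = 0.0279). Control embryo 1, and no other embryo array, lay below its brightest nonspecific probe set. Fzd4 is higher in yolk sac than in embryo, and control embryo 2 and MEHP embryo 3 had the highest visceral endoderm medians among their groups, 6.50 and 7.22, against 5.12 to 5.19 on the other 4 arrays of those groups. Fzd4 was 4.93 on control embryo 2, the highest of the 3 controls, and 5.38 on MEHP embryo 3, the lowest of the 3 exposed arrays. The part of these markers in the Fzd4 result was not tested.

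Ror1, a receptor tyrosine kinase for Wnt5a, read 7.76, 7.85 and 7.99 in controls and 8.25, 8.43 and 8.32 in MEHP embryos. The groups did not overlap, and the difference was 1.39-fold (log2 0.47, SE 0.11, adjusted p = 0.0279). Dkk2, which can block or assist Lrp6 depending on context, read 5.33, 5.55 and 6.07 in controls and 6.54, 6.54 and 6.15 in MEHP embryos. The highest control and the lowest exposed array were close, and the difference was 1.69-fold (log2 0.76, SE 0.20, adjusted p = 0.0421).

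Wnt3a read 5.84, 5.64 and 5.68 in controls and 5.44, 5.32 and 5.37 in MEHP embryos. It was 1.27-fold lower after MEHP (log2 -0.34, SE 0.09, adjusted p = 0.0435), without overlap. The other 3 genes that fell were below the nonspecific probe sets on every embryo array. Wnt2b averaged 3.94 in controls and 3.54 after MEHP (adjusted p = 0.0134). Wnt10a averaged 3.96 and 3.65 (adjusted p = 0.0257), and Wnt8a 4.35 and 4.06 (adjusted p = 0.0429). The nonspecific probe sets fell by 0.23 between the same groups, and its part in these 3 results was not tested.

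The 8 calls varied with single arrays and with the settings of the fit. With 1 array left out, 0 to 8 members passed, and 1.38% to 12% of all genes: 2 members without control embryo 1, 4 without control embryo 2, 1 without MEHP embryo 1, 0 without MEHP embryo 2 and 2 without MEHP embryo 3. Without control embryo 3 there were 8, of which 6 were among the 8 named here. With the nonspecific level as a covariate 0 of the 49 genes and 0 of all 20794 passed, and without the embryo arrays richest in visceral endoderm markers 0 of the 49 and 0.423% of all genes did. The nonspecific level was lower on every MEHP embryo than on every control embryo, so as a covariate it takes up part of the exposure contrast. The marker setting took control embryo 2 and MEHP embryo 3 out of the groups compared, which left fewer arrays in each. Neither fit can tell these limits from a part of background or markers in the calls. Among genes clear of the dim range 2 of 28 members and 4.69% of genes passed, and under quantile normalization 3 members and 4.8% of genes. Wnt5b held in 5 of 6 fits that left out an array, Wnt2b in 4 and Fzd4 in 2. Ror1, Dkk2, Wnt10a and Wnt8a each held in 1 of 6, and Wnt3a in 0 of 6.

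**Figure D2:**
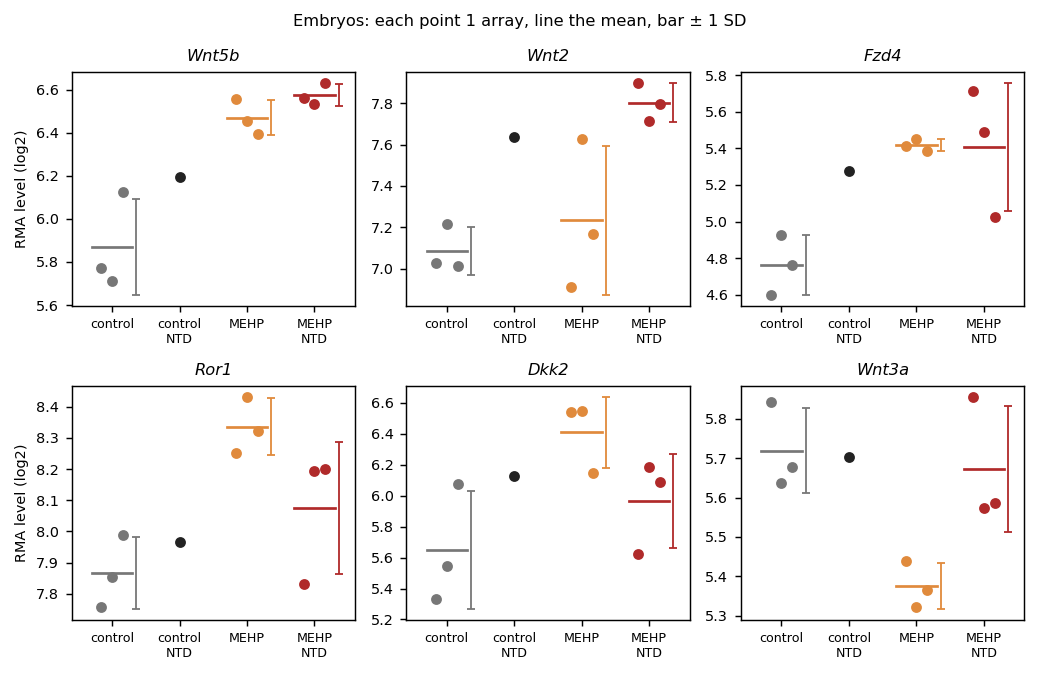
RMA levels (log2) on each embryo array for the 6 genes above background that passed in a comparison of MEHP with control embryos; lines are means and bars 1 SD. Wnt5b and Fzd4 are above all 3 controls in both exposed groups, Wnt2 stands apart in the group with NTD, and Wnt3a is lowest in the exposed embryos without NTD.

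MEHP embryos with NTD were compared with the same 3 control embryos. Since both comparisons use those controls, the values are given side by side. Of the 49 genes, 3 rose and 2 fell, whereas 7.45% of all genes changed, 3.21% up and 4.24% down. Wnt5b, Wnt2 and Fzd4 rose, and the dim Wnt2b and Wnt10a fell. At an unadjusted p below 0.05 there were 12 of the 49 and 27.7% of all genes. Arrays did not overlap for 7 members above controls and 6 below, against 9.51% and 20% of all genes, or 29.5% either way.

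Wnt5b read 6.56, 6.53 and 6.63 in exposed embryos with NTD, a narrow range above all 3 controls. Its difference from controls was 1.63-fold (log2 0.71, SE 0.10, adjusted p = 0.00911), beside 1.52-fold in exposed embryos without NTD. It held in all 6 fits that left out an array, and the second probe set moved by 0.16 (SE 0.08, adjusted p = 0.218). Fzd4 read 5.71, 5.49 and 5.02, with 1 array close to the highest control at 4.93. Its difference was 1.57-fold (log2 0.65, SE 0.15, adjusted p = 0.0328), and it held in 2 of 6 fits that left out an array.

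Wnt2 read 7.03, 7.22 and 7.01 in controls and 7.90, 7.72 and 7.79 in MEHP embryos with NTD. Every array with NTD was above every control, and the difference was 1.65-fold (log2 0.72, SE 0.15, adjusted p = 0.026). This rise held in 2 of 6 fits that left out an array. In MEHP embryos without NTD Wnt2 read 6.91, 7.62 and 7.17, which spans the controls (log2 difference 0.15, SE 0.15). The single control embryo with NTD read 7.64. In the same MEHP embryos with NTD, 3 of 7 heart markers rose, as did 3.21% of all genes. The summed level of the 7 markers ran from 68.8 to 70.4, against 66.1 to 67.1 in controls and 67.0 to 67.6 in MEHP embryos without NTD. The part of these markers in the Wnt2 result was not tested.

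Wnt2b averaged 3.62 (adjusted p = 0.0278) and Wnt10a 3.67 (adjusted p = 0.0351) in MEHP embryos with NTD, below the nonspecific probe sets throughout. Of the 6 fits that left out an array, Wnt2b passed in 2 and Wnt10a in 1. Dkk1 was next in p and did not pass (log2 difference 0.26, SE 0.07, adjusted p = 0.0588). Neither Ror1 (log2 difference 0.21, SE 0.11) nor Dkk2 (0.32, SE 0.20) nor Wnt3a (-0.05, SE 0.09) passed against controls here. With 1 array left out, 1 to 6 members passed in place of 5, and 1.3% to 9.32% of all genes: 2 without control embryo 1, 3 without control embryo 2, and 2, 1 and 2 without MEHP embryo with NTD 1, 2 and 3. The count was 0 with the nonspecific level as a covariate and 0 without the arrays richest in visceral endoderm markers (0.414% of all genes), and 2 when only these arrays were fitted or dim genes were removed. As above, the covariate takes up part of the exposure contrast, and the marker setting left fewer arrays in each group.

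In the fit used here the core of the β-catenin branch moved little in embryos. Axin2 read 7.81, 8.06 and 8.05 in controls, 8.06, 7.89 and 8.14 in MEHP embryos without NTD and 8.12, 7.99 and 8.12 in those with NTD. All 3 groups overlapped, and the differences from controls were 0.06 (95% interval -0.15 to 0.26) and 0.10 (95% interval -0.10 to 0.31). Ctnnb1 read 12.50, 12.51 and 12.55 in controls, 12.53, 12.57 and 12.54 without NTD and 12.36, 12.52 and 12.50 with NTD. Its differences were 0.03 and -0.06, and neither passed. Over 14 alternative fits the first ran from -0.04 to 0.36 and the second from -0.14 to 0.28, and none passed. Lrp6, whose loss causes open neural tubes in mice, read 6.35, 6.38 and 6.29 in controls and 6.58, 6.63 and 6.46 in MEHP embryos without NTD. Those groups did not overlap, yet the difference of 0.21 (SE 0.07) did not pass (adjusted p = 0.0897).

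Pathway genes outside the 49 were examined in the same fits. In MEHP embryos without NTD, 1 of 21 secretion and cell surface genes rose and 1 fell, and 1 of 19 response genes rose, whereas 3.82% of all genes rose and 5.9% fell. Wif1, a secreted Wnt inhibitor, averaged 4.11 against 3.66 and was below the nonspecific probe sets on all 10 embryo arrays, and Lgr6, an R-spondin receptor, averaged 4.21 against 4.59 and was above them on 1. Id2, a helix-loop-helix inhibitor, rose by 0.26 (SE 0.07, adjusted p = 0.0368). No cytoplasmic, nuclear or planar polarity gene passed. In MEHP embryos with NTD, where 3.21% of all genes rose and 4.24% fell, 2 of 19 response genes rose, Bambi by 0.32 (SE 0.07, adjusted p = 0.0331) and Id2 by 0.25 (SE 0.07, adjusted p = 0.0453). Of 19 cytoplasmic genes 1 rose, Dvl2, which relays Frizzled signals, by 0.29 (SE 0.08, adjusted p = 0.0497). Of 15 planar polarity genes 2 fell, beside 4.24% of all genes, Fuz by 0.51 (SE 0.10, adjusted p = 0.0232) and Celsr3 by 0.47 (SE 0.12, adjusted p = 0.0395). Fuz, an effector needed for cilia and neural tube closure in mice, was above the nonspecific probe sets on 6 of 10 embryo arrays, and Celsr3, an atypical cadherin of neurons, on 9. In these embryos 6 of 7 neuron markers fell, with a summed level of 43.1 to 45.7 against 49.1 to 49.6 in controls, and its part in the Celsr3 result was not tested.

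**Figure D3:**
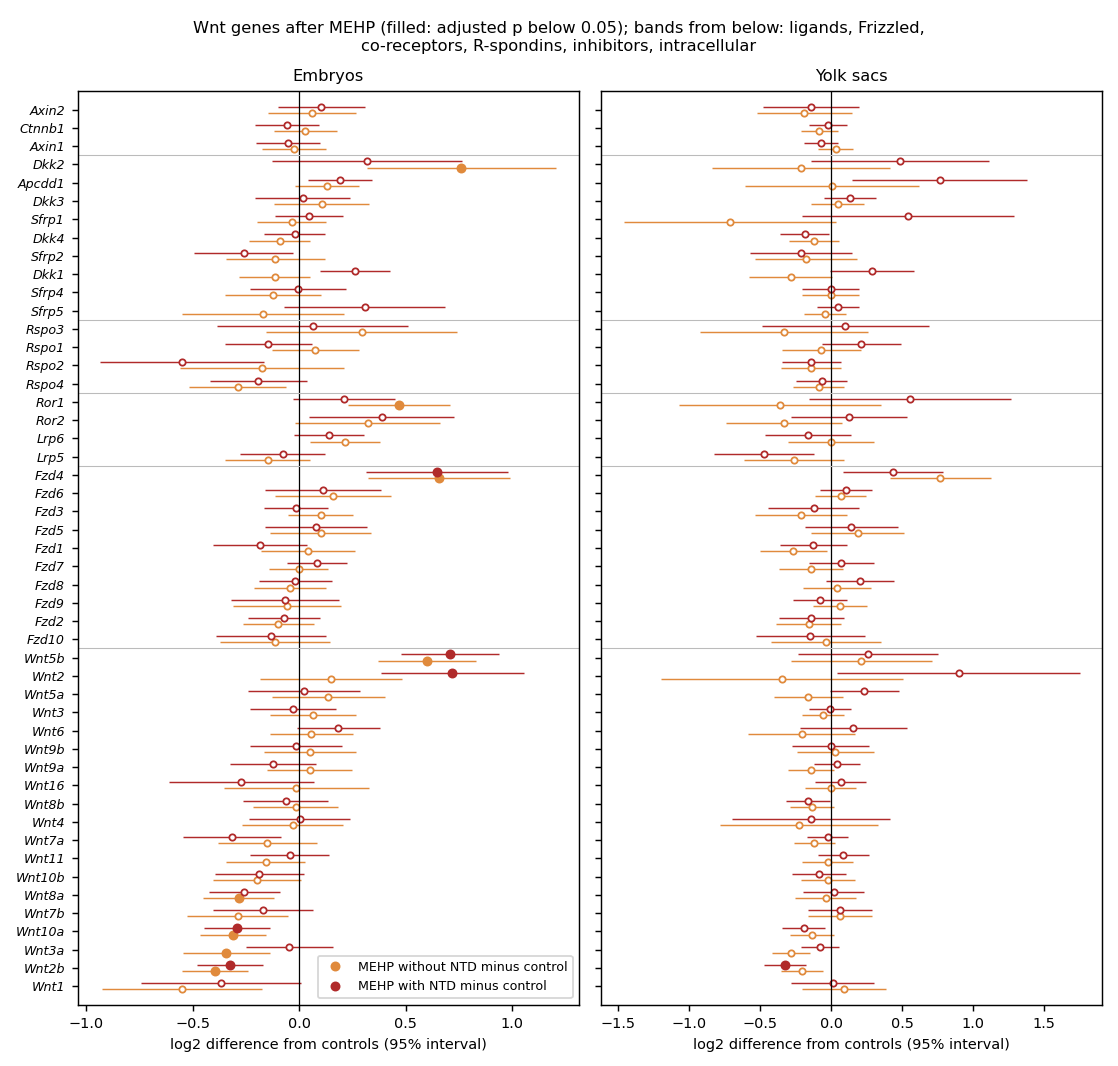
Log2 difference from control arrays without NTD for all 49 genes, with 95% intervals, in embryos (left) and yolk sacs (right); filled points passed the adjusted threshold. Most intervals cover 0, Wnt5b and Fzd4 are filled in both embryo comparisons, and Wnt2b is the 1 filled point among the yolk sacs.

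Within MEHP exposure, embryos with NTD were compared with embryos without. In limma, 0 of 49 genes passed, whereas 0.024% of all genes did (0.00962% higher and 0.0144% lower with NTD), and 7 of the 49 had an unadjusted p below 0.05 (5.66% of all genes). The median difference was 0.01 over the 49 genes. Arrays of the groups did not overlap for 11 members, 6 wholly above with NTD (6.43% of all genes were) and 5 wholly below (6.78%).

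Dkk1, the Lrp5 and Lrp6 blocker needed for head formation in mice, had the smallest p. It read 5.99, 6.03 and 5.94 in MEHP embryos without NTD and 6.34, 6.46 and 6.30 in those with NTD. Controls read 6.01, 6.11 and 6.199, between the exposed groups with partial overlap of the lower one. The difference with NTD was 0.38 (SE 0.07, unadjusted p = 0.000433 and adjusted p = 0.24 from limma).

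Wnt2 was 0.57 higher with NTD (SE 0.15, adjusted p = 0.413), and the nearest arrays of the groups read 7.72 and 7.62. Wnt3a was 0.30 higher with NTD (SE 0.09, adjusted p = 0.595), at 5.86, 5.57 and 5.59, which overlaps the controls. This difference and the fall of Wnt3a against controls share the exposed embryos without NTD, so each follows in part from the low values of that group. Sfrp5 was 0.48 higher (SE 0.17, adjusted p = 0.747), with 1 array at 5.89 and the others at 5.04 and 5.25. The array at 5.89, MEHP embryo with NTD 1, had the highest Gapdh 3′ minus 5′ difference of the embryos, 0.35, against 0.09 to 0.12 on the other MEHP embryos. It also had the lowest Rspo3, Sfrp2, Wnt5a and Fzd1 levels of its group, and the part of RNA quality in these values was not tested. Ror1 was 0.26 lower with NTD (log2 difference -0.26, SE 0.11, adjusted p = 0.849) and the R-spondin Rspo1 0.22 lower (-0.22, SE 0.09, adjusted p = 0.856). None of these differences passed, and no planar polarity, response or other pathway list held a gene that did.

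In yolk sacs, MEHP without NTD was compared with control. Of the 49 genes 0 passed in limma, whereas 0.313% of all genes did (0.192% higher and 0.12% lower), and 4 of the 49 had an unadjusted p below 0.05 (17.1% of all genes). The median difference was -0.12 over the 49 genes, with 37 of 49 below 0, and -0.02 over all genes, with 11854 of 20794 below 0. Arrays did not overlap for 1 member above controls and 7 below, against 9.65% and 14% of all genes. Fzd4 came nearest. It read 6.86, 6.36 and 6.64 in controls and 7.19, 7.59 and 7.38 after MEHP, without overlap (log2 difference 0.77, SE 0.16, adjusted p = 0.0711). Wnt3a read 5.14, 5.17 and 5.12 in controls and 4.87, 4.81 and 4.90 after MEHP, also without overlap (-0.28, SE 0.06, adjusted p = 0.0745). Wnt2b, below the nonspecific probe sets throughout, followed (means 3.95 and 3.74, adjusted p = 0.165). After it came Fzd1 (-0.26, SE 0.11), Dkk1 (-0.28, SE 0.13) and Sfrp1 (-0.71, SE 0.34), with adjusted p from 0.242 to 0.315.

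Fzd4 and Wnt3a thus had the same direction in both tissues. The MEHP differences in embryos and yolk sacs were 0.65 and 0.77 for Fzd4 and -0.34 and -0.28 for Wnt3a. Arrays did not overlap in the same direction in both tissues for 3 members, Fzd4, Wnt3a and Wnt2b, which is 6.12% of 49, and for 9.61% of all genes. A direct test of the difference between tissues passed for 0 of 49 genes in limma (0.0769% of all genes, 0.0289% higher and 0.0481% lower), and 5 had an unadjusted p below 0.05 (13.1% of all genes). The smallest p was that of Wnt1 (-0.64, SE 0.23, adjusted p = 0.262), followed by Dkk2 (0.97, SE 0.38), Ror2 (0.65, SE 0.26), Wnt7b (-0.35, SE 0.15), Ror1 (0.83, SE 0.37) and the dim Wnt2b, with adjusted p from 0.297 to 0.388. Whether embryos and yolk sacs came from the same conceptuses is not stated.

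Yolk sacs of MEHP conceptuses with NTD were compared with the same 3 control yolk sacs. Only Wnt2b passed, falling from a mean of 3.95 to 3.62 (adjusted p = 0.0384), whereas 2.38% of all genes changed, 1.4% up and 0.976% down. At an unadjusted p below 0.05 there were 8 of the 49 and 20.8% of all genes. Arrays did not overlap for 3 members above controls and 5 below, against 11.7% and 13.9% of all genes. Wnt2b was below the nonspecific probe sets on all 10 yolk sac arrays, which fell by 0.21 between these groups, and it did not pass in any of the 6 fits that left out an array. Next in p were Lrp5 (-0.47, SE 0.16), the dim Wnt10a, Apcdd1 (0.76, SE 0.28), Fzd4 (0.44, SE 0.16) and the dim Dkk4, with adjusted p from 0.133 to 0.215. Axin2 read 5.90, 6.41 and 6.16 in control yolk sacs, 5.69, 6.12 and 6.09 after MEHP without NTD and 6.01, 5.84 and 6.198 with NTD, and the groups overlapped. Ctnnb1 ranged from 12.30 to 12.48 over all 10 yolk sacs.

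Outside the 49 genes, Dll1, a Notch ligand that responds to Wnt in presomitic mesoderm, fell in MEHP yolk sacs without NTD by 0.52 (SE 0.07, adjusted p = 0.028) and with NTD by 0.41 (SE 0.07, adjusted p = 0.0289). Bambi, a decoy receptor and β-catenin target, rose with NTD by 0.57 (SE 0.09, adjusted p = 0.0266). Bcl9l, a β-catenin coactivator, fell with NTD by 0.31 (SE 0.06, adjusted p = 0.0355). These were 1 of 19 response genes without NTD, and 2 of 19 response genes and 1 of 13 nuclear genes with NTD, whereas 0.313% and 2.38% of all genes changed.

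Among MEHP yolk sacs, those from conceptuses with NTD were compared with those without. In limma 0 of 49 genes passed and the share over all genes was 0%, with 11 of the 49 at an unadjusted p below 0.05 (9.63% of all genes). The median difference was 0.06 over the 49 genes, with 34 of 49 above 0, and 0.01 over all genes, with 11377 of 20794 above 0. Arrays did not overlap for 14 members, 10 above with NTD (8.89% of all genes were) and 4 below (6.3%).

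Dkk1 again had the smallest p. It read 4.64, 4.90 and 5.17 in MEHP yolk sacs without NTD and 5.62, 5.40 and 5.42 with NTD (difference 0.57, SE 0.13, adjusted p = 0.215). Controls read 5.17, 5.36 and 5.03, all below the lowest array with NTD. Sfrp1 was 1.26 higher with NTD (SE 0.34, adjusted p = 0.272), Wnt2 1.24 higher (SE 0.38, adjusted p = 0.345), Ror1 0.92 higher (SE 0.32, adjusted p = 0.397), Wnt5a 0.39 higher (SE 0.11, adjusted p = 0.284) and Wnt3a 0.21 higher (SE 0.06, adjusted p = 0.306). None of these differences passed.

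Dkk1, Wnt2, Wnt3a and Sfrp5 lay wholly above with NTD in both tissues, as did 155 of all 20794 genes. No member lay wholly below in both tissues, against 115 of all genes. With either direction counted, the groups separated alike in both tissues for 8.16% of the 49 genes and 1.3% of all genes. The 4 genes were picked out after their values were seen, and no test was made of the count. Sfrp5 in yolk sac spanned only 4.71 to 4.86 over the 6 exposed arrays. Ror1 and Rspo1 separated in opposite directions, lower with NTD in embryos and higher with NTD in yolk sacs. Opposite separations numbered 2 among the 49 genes and 209 among all 20794. The test of the NTD difference between tissues passed for 0 of 49 genes in limma (0.0144% of all genes), with 8 at an unadjusted p below 0.05 (7.64% of all genes). Ror1 (-1.18, SE 0.37, adjusted p = 0.4), Sfrp1 (-1.17, SE 0.38), Rspo1 (-0.50, SE 0.16), Wnt9a (-0.35, SE 0.12), Dkk2 (-1.14, SE 0.38) and Wnt5a (-0.51, SE 0.17) had the smallest p, adjusted p up to 0.46.

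**Figure D4:**
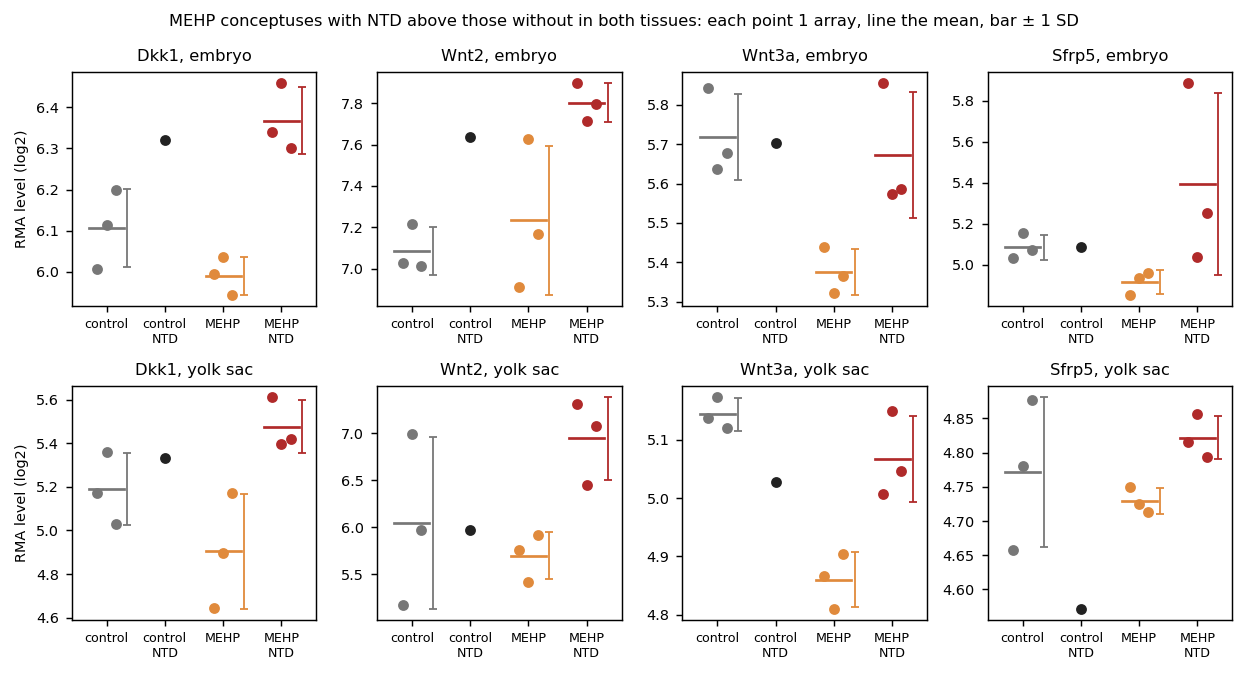
RMA levels (log2) on each array for Dkk1, Wnt2, Wnt3a and Sfrp5 in embryos (top) and yolk sacs (bottom); lines are means, bars 1 SD, and the control with NTD is a single array. In every panel the 3 MEHP arrays with NTD lie above the 3 MEHP arrays without, and the controls overlap the higher group in some panels and not in others.

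The 3 yolk sac arrays with the highest Wnt2 were also the 3 highest for other members. These arrays were chosen by Wnt2 itself, after its values were seen. Wnt2 read 6.99 on control yolk sac 2, 7.30 on MEHP yolk sac with NTD 1 and 7.08 on MEHP yolk sac with NTD 3, and 5.17 to 6.45 on the other 7. Sfrp1 read 6.87, 7.14 and 6.98 on the same arrays and 5.21 to 6.04 on the others. Ror1 and Rspo3 had their 3 highest values there too, from 5.84 to 6.47 and from 5.50 to 5.73, so 3 members besides Wnt2 shared its 3 highest arrays. Wnt2 counts by construction, and with it the 4 are 8.16% of the 49, against 1.87% of all genes, with no test of the count.

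The 4 markers of extraembryonic mesoderm and allantois summed to 30.1, 29.4 and 31.1 on those arrays and to 27.9 to 29.0 on the others. Among them Tbx4, a gene of the allantois, read 6.18, 5.34 and 6.28, against 3.84 to 4.94. Tbx4 is part of the sum, and whether the sum separates without it is not shown here. Control yolk sac 2 also had the highest Gapdh and Actb 3′ minus 5′ differences of the yolk sacs, 0.48 and 0.96, and the other 2 arrays did not (0.17 and 0.48, 0.11 and 0.53). The part of these markers and of RNA quality in the yolk sac differences was not tested. On the remaining array with NTD, where Tbx4 read 4.33, Wnt2 was 6.45, Sfrp1 6.04 and Ror1 5.37, each above all 3 MEHP yolk sacs without NTD, whereas Rspo3 was 4.81, below MEHP yolk sac 1 at 5.21.

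**Figure D5:**
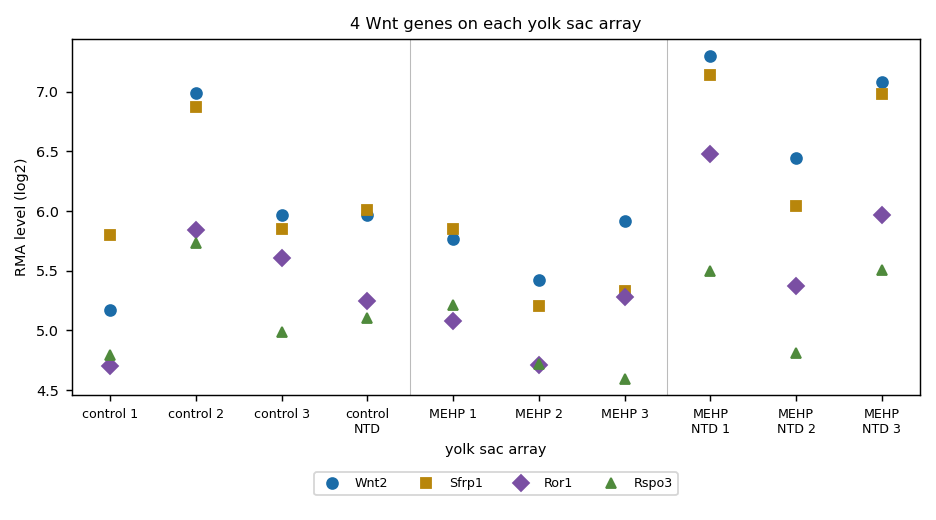
RMA levels (log2) of 4 Wnt genes on each of the 10 yolk sac arrays, each point 1 array. Wnt2, Sfrp1, Ror1 and Rspo3 are highest on control 2, MEHP NTD 1 and MEHP NTD 3; levels of different genes are not compared.

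The authors' deposited tables, which set all 6 MEHP arrays of a tissue against all 4 controls, can be laid beside these fits. In embryos the authors' deposited table lists 0.57 for Wnt5b, 0.52 for Fzd4 and 0.31 for Ror1, with adjusted p of 0.00253, 0.0218 and 0.0458. It also passes, as lower, Wnt2b, Wnt10a and Wnt8a, which are below the nonspecific probe sets (adjusted p = 0.00124, 0.00223 and 0.0069), and the authors' deposited table for yolk sacs passes Wnt2b (adjusted p = 0.0238). For embryos the authors' deposited table gives Dkk2 0.42 (adjusted p = 0.144) and Wnt3a -0.19 (adjusted p = 0.173). For NTD, the authors' deposited table for embryos sets 4 arrays against 6 with controls on both sides, unlike the comparison within MEHP above. The authors' deposited table gives Dkk1 0.31 and Wnt2 0.60 there, each with an adjusted p of 0.993. These tables use the same arrays and are not independent of the values above.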

How the data were processed

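The 20 arrays were read as the log2 values that the authors deposited, made by RMA per the submitters' processing notes, which also name limma and R 2.15.1. The authors' deposited comparison tables give a log2 difference, a ratio and p-values, and served to check the array groups: only the grouping used here reproduced their differences. The sample headings of a second deposited table place 13 of the 20 arrays in another group and were used only as an alternative.

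The table held 45141 probe sets. Those serving as array controls (104) and those lacking a gene symbol (6670) were not used. For each of 20794 genes the probe set with the highest mean was kept, and 49 genes with 96 probe sets were members. Members and lists were chosen with earlier results of these data known. Every member was fitted. limma 3.58.1 in R 4.3.3 was fitted per tissue over its 4 groups, and over all 8 groups for comparisons between tissues, with Benjamini-Hochberg adjustment over all genes and a threshold of 0.05. Residual degrees of freedom were 6 per tissue and 12 over both. The script was tested on simulated data. A dim gene was judged against 9 nonspecific probe sets. The number of arrays limits precision, with a median SE of 0.09 in embryos and 0.08 in yolk sacs. Named genes were all members past the threshold, or the 6 with the smallest p where fewer passed, and for the tissues the 12 largest each way. Alternatives were quantile normalization, dim genes removed, only the arrays compared, trended variances, the nonspecific level as covariate, the other headings, all probe sets and each array left out. Figures were drawn with matplotlib 3.10.9.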

Additional observations from a re-analysis of the deposited data

Results flagged for a closer look

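The single control embryo with NTD and single control yolk sac with NTD enter no comparison, and a member is named where its value exceeded the highest control by more than the range of the 3 controls. These single arrays were not tested. In the embryo this held for 5 of 49 genes (6.59% of all genes). Wnt2 read 7.64 against controls of 7.01 to 7.22, and Fzd4 read 5.28 against 4.60 to 4.93. Sfrp1 read 9.71 against 9.61 to 9.66, Wnt8b 6.43 against 6.25 to 6.33 and Wnt9b 4.71 against 4.48 to 4.58, the last of these below the nonspecific probe sets. Wnt2 and Fzd4 were also higher in MEHP embryos with NTD than in controls. Fzd4 rose in MEHP embryos without NTD too, with means of 5.42 there and 5.41 with NTD. In the yolk sac it held for 2 of 49 (5.51% of all genes): Sfrp4 read 5.61 against 5.35 to 5.39, and Wnt7a read 4.51 against 4.34 to 4.42, below the nonspecific probe sets. Below the lowest control by more than the range lay 1 of 49 genes in the embryo (5.53% of all genes), Sfrp2 (9.39 against 9.44 to 9.48). In the yolk sac 3 of 49 did (7.46% of all genes): Wnt3a (5.03 against 5.12 to 5.17), Axin1 (7.66 against 7.73 to 7.78) and Rspo2 (4.29 against 4.43 to 4.501), the last below the nonspecific probe sets. Wnt3a in the control yolk sac with NTD thus lay below its controls, whereas MEHP yolk sacs with NTD lay above those without. Dkk1 in the control embryo with NTD read 6.32 against 6.01 to 6.199, above all controls by less than their range.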

How the results depend on the processing

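No paired analysis was possible because the array columns carry no replicate number from the labels. The counts of members past the threshold are given here under the alternatives that moved them by over 1.5 times. For MEHP embryos without NTD against controls the count was 8. It was 3 under quantile normalization, 2 among genes that were not dim, 0 with the nonspecific level as covariate, 29 under the other headings, 0 to 8 with 1 array left out, and 0 without the arrays richest in visceral endoderm markers. For MEHP embryos with NTD against controls it was 5, and 3, 2, 0, 0 and 1 to 6 under the same first 5 alternatives, 2 with only the arrays compared and 0 without the arrays richest in visceral endoderm markers. For MEHP yolk sacs without NTD it was 0, and 1 with trended variances and 1 with any probe set counted. For MEHP yolk sacs with NTD against controls it was 1, and 2 with any probe set; it was 0 under quantile normalization, without dim genes, with only the arrays compared, with the covariate, under the other headings, with any 1 array left out, without the array with the highest RNA 3′/5′ difference and without the arrays richest in allantois markers. For the tissues it was 37, and 24 without dim genes (of 28 members left, with 76.4% of 10397 genes), 5 under the other headings and 31 to 37 with 1 array left out. Under the other headings 17 members passed for NTD among MEHP yolk sacs, 34 for the tissue difference of MEHP and 30 for that of NTD, against 0 in each. Under these headings, which mix the tissues, the signs turned for Axin2 (-1.82), Ror1 (-2.48), Wnt2b (0.0049) and Wnt5b (-1.64) in MEHP embryos without NTD, for Wnt2 (-0.25) and Wnt5b (-0.17) in those with NTD, and for Axin2 (-2.06) and Wnt3a (-0.60) among MEHP yolk sacs. Leaving out arrays by marker level or by RNA 3′/5′ difference was added after the data were seen, and a group left with 1 array was assumed to vary like the others. The nonspecific level differs between exposed and control arrays, so as a covariate it takes up part of the exposure contrast. Causes of the other shifts were not tested.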
